A study of Homo sapiens with 16 samples.

Results

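ZC3H12A-knockout A549 cells were compared with wild-type A549 cells after 3 days of normal culture. A549 is an established human line of non-small cell lung cancer. The comparison used 4 of the 16 libraries of the study, 2 labelled wild type and 2 labelled ZC3H12A knockout, and all 18227 genes of their deposited table. The titles of the knockout libraries name a single clone, so both are libraries of that clone, and the edit cannot be told apart from anything else that distinguishes the clone from the wild-type cells. Nothing says that the replicates were separate cultures, and the p-values therefore measure only the spread between these libraries, which may be technical. For reference, the same clone and wild-type cells after 7 days in stem-cell-enriched (oncosphere) culture, and a knockout clone and wild-type cells of the lung cancer line H2023 after 3 days of normal culture, supplied 4 libraries each.

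ZC3H12A encodes Regnase-1, an RNase that binds stem-loops in the 3′ ends of selected mRNAs and cleaves them, so that these transcripts are short-lived. It is best known for restraining inflammatory transcripts such as those of chemokines and cytokines, and its own mRNA is among its targets. A549 cells express genes of several lineages, including liver-type secreted proteins and transcription factors of endoderm-derived tissues.

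Levels are given as TPM (transcripts counted per fixed library total), which are scaled for transcript length and library size and keep no record of a library's depth. The 4 libraries each held between 13824 and 14004 genes at 1 TPM or more and listed between 253 and 394 genes at 0. Replicates correlated with r of 0.985 in wild type and 0.987 in the knockout clone across the 14090 genes with a mean of at least 1 TPM (genes are not independent replicates). Mitochondrially encoded genes took 11.8% and 16.01% of TPM in wild type and 13.4% and 18.7% in the knockout clone, and none of the 15 passed the test. Of the epithelial markers listed for A549, all 6 were measured, and their summed level was 9346 and 9175 TPM in wild type and 5009 and 2571 TPM in the knockout clone, most of it from keratins. Markers of other cell types were also summed. The 4 fibroblast markers measured of 8 summed to between 3.08 and 4.70 TPM in the 4 libraries, and the 4 leukocyte markers of 12, mostly CD68, to 62.1 and 46.9 TPM in wild type and 48.8 and 35.8 TPM in the knockout clone. The 2 endothelial markers of 8 summed to 10.4 and 2.37 TPM against 1.87 and 0.86 TPM, nearly all ESAM, with PECAM1 at 0.10 TPM at most. The 5 muscle and neural markers of 8 summed to 15.8 and 34.9 TPM against 48.8 and 44.4 TPM, with SNAP25 called higher (log2 fold change 1.74) and RBFOX3 lower (-2.26). ZC3H12A itself (ENSG00000163874, chr1:37474552-37484379, + strand, GRCh38) was at 30.7 and 34.9 TPM in wild type and at 16.9 and 19.9 TPM in the knockout clone. Its log2 fold change was -0.80 (SE 0.14, adjusted p = 0.029). The transcript was thus lower in these libraries labelled knockout but still present. It was not lower in the knockout libraries used for reference. In stem-cell-enriched culture ZC3H12A was at 48.5 and 49.2 TPM in wild type and at 60.2 and 55.6 TPM in the same clone (log2 fold change 0.24, adjusted p = 0.19). In H2023 it was at 26.8 and 29.9 TPM in wild type and at 41.5 and 41.5 TPM in its clone (0.54, adjusted p = 0.15). In that H2023 test even TM4SF20, with a log2 fold change of -4.02, did not pass (adjusted p = 0.10). Not passing there thus says little. The fold change of ZC3H12A differed from that in normal A549 culture in both tests, by -1.04 between cultures (SE 0.17, adjusted p = 0.019) and by -1.34 between lines (SE 0.17, adjusted p = 0.0048). The mRNA level does not by itself check the labels or show whether the protein was lost.

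Changes were tested for every gene with limma on log2(TPM + 1), and a gene was called at a Benjamini-Hochberg adjusted p under 0.05. Fold changes are knockout over wild type on that scale, which understates the change of genes with low values. Of all genes tested, 10.8% were called: 4.54% were higher and 6.28% lower in the knockout clone, and the median over all genes was -0.03. The 2 groups were free of overlap in all 1971 called genes, but also in 61.7% of all genes tested, so with 2 libraries a group the lack of overlap adds little to a call. Among them, 65 rose and 142 fell by 2 or more log2 units. Falls outnumbered rises with values as deposited (1144 against 827), but not when fold changes were centred on the median of genes with a mean of at least 1 TPM (896 lower and 958 higher). With any 1 of the 4 libraries left out no gene passed, although between 3620 and 4813 genes then had an unadjusted p under 0.05. When the spread was instead taken from the A549 libraries of both cultures, leaving out wild-type replicate 1 or 2 gave 1155 or 1683 calls, and leaving out knockout replicate 1 or 2 gave 1217 or 948. These 4 fits are the ones referred to below where a call or a list's count changed without a library.

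The largest falls were taken among called genes with a mean of at least 10 TPM in the higher group, here wild type. Some of them were under 1 TPM in the knockout clone and others were still detected there. FXYD2 (chr11:117800844-117828698, - strand), a regulatory subunit of the sodium-potassium pump, was at 510 and 429 TPM in wild type and at 0.02 and 0.69 TPM in the knockout clone (log2 fold change -8.48, SE 0.26, adjusted p = 0.0015). NTS, which encodes the secreted peptide neurotensin, was at 320 and 582 TPM against 0.32 and 0.78 TPM. GPX2, a glutathione peroxidase of epithelia, was at 270 and 301 TPM against 5.94 and 6.53 TPM, and its log2 fold change of -5.31 had the small standard error of 0.11. These replicate pairs were close together beside the gap between groups. UPK1B, a uroplakin of urothelial membranes, TM4SF4, a tetraspanin-like membrane protein, and SLC7A7, a subunit of an amino acid transporter, fell by 4.98, 4.54 and 4.52. HLA-DMB, a chaperone of peptide loading on MHC class II, went from 19.1 and 35.6 TPM to 0.07 and 0.19 TPM. The non-coding LINC02582 was at 29.5 and 35.8 TPM in wild type and listed at 0 in both knockout libraries. In all, 18 called genes with a wild-type mean of at least 10 TPM were under 1 TPM in both knockout libraries.

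The largest rises included matrix and cell-surface genes. MMP2, the gelatinase that cleaves type IV collagen (chr16:55389700-55506691, + strand), was at 3.91 and 3.03 TPM in wild type and at 113 and 114 TPM in the knockout clone (log2 fold change 4.69, SE 0.14, adjusted p = 0.0015). ANPEP, the surface aminopeptidase CD13, was at 6.42 and 4.54 TPM against 153 and 121 TPM. EFEMP1, an extracellular matrix glycoprotein, was at 6.99 and 5.06 TPM against 90.6 and 77.9 TPM. None of these groups overlapped, which held for every called gene. DIO2, which activates thyroid hormone, was at 0.40 and 1.56 TPM against 20.8 and 41.4 TPM, and ITGB3, the integrin beta 3 subunit, rose by 3.59. ACKR3, a scavenging receptor for CXCL12, was listed at 0 and 0.13 TPM in wild type and at 11.7 and 18.8 TPM in the knockout clone. NPY4R and NPY4R2, near-identical copies of a receptor gene for pancreatic polypeptide, rose by 4.51 and 4.15, and the split of reads between them is uncertain. The same holds for UGT1A7, a glucuronidation enzyme whose exons are largely shared with the other UGT1A genes, which rose by 4.13. Rises from under 1 TPM in both wild-type libraries to a mean of at least 10 TPM were found for 5 called genes, against the 18 in the other direction.

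**Figure D1:**
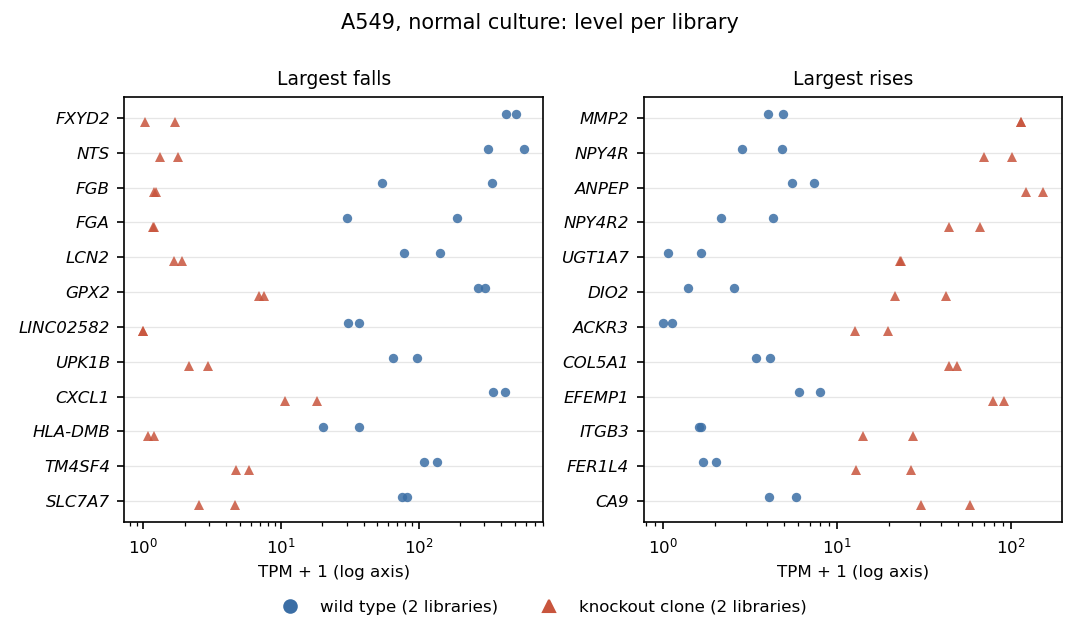
TPM + 1 on a log axis in each library for the 12 genes with the largest falls (left) and the 12 with the largest rises (right) among called genes with a mean of at least 10 TPM in the higher group. Circles are the 2 wild-type libraries and triangles the 2 libraries of the knockout clone. Genes were chosen among those without overlap, and FGB and FGA have the widest spread between wild-type replicates.

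Chemokines and other transcripts reported as Regnase-1 targets were lower in the knockout clone. Of the 14 chemokine and receptor genes measured, 8 fell and 1, ACKR3, rose, with a list median of -1.65 against -0.03 over all genes. CXCL5, a neutrophil-attracting chemokine, was at 955 and 1096 TPM in wild type and at 65.0 and 55.2 TPM in the knockout clone (log2 fold change -4.07, SE 0.13, adjusted p = 0.0015). CXCL1, of the same class, was at 348 and 427 TPM against 17.2 and 9.73 TPM, and CXCL8, interleukin-8, at 109 and 124 TPM against 9.32 and 5.10 TPM. Each wild-type library was above both knockout libraries, as in every gene called lower. In these bulk libraries, fewer cells expressing a gene and less RNA per cell cannot be told apart. CXCL3 and CXCL2 fell by 3.60 and 2.63. The monocyte chemokine CCL2 was at 168 and 163 TPM against 25.6 and 14.3 TPM. CXCL10, CXCL16, CCL5, CCL26 and CXCR4 did not pass.

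The genes CXCL8, CXCL1, CXCL5, CXCL3 and CXCL2 lie within 359 kb of one another on chromosome 4. Because all 5 fell, the 120 bases before their start sites are shown (RefSeq, GRCh38.p14), each read in the direction of its gene, with the letters GGAATTTCC, a sequence of the type bound by NF-kB, in capitals. The windows are chr4:73740449-73740568 (+ strand) for CXCL8, chr4:73869273-73869392 (+) for CXCL1, chr4:73998678-73998797 (-) for CXCL5, chr4:74038690-74038809 (-) for CXCL3 and chr4:74099196-74099315 (-) for CXCL2.
CXCL8: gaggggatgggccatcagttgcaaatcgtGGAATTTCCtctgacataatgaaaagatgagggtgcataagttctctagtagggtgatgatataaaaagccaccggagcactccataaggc
CXCL1: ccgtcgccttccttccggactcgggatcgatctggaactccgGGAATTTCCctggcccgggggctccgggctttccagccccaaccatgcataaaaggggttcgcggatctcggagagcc
CXCL5: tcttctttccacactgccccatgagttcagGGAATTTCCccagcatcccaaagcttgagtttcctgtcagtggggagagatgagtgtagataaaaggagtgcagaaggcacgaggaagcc
CXCL3: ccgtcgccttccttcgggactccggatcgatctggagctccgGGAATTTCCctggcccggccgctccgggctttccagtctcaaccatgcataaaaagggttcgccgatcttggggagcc
CXCL2: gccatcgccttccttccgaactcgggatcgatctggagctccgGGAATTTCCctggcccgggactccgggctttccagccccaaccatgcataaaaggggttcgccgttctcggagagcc
The letters were chosen after these windows had been read. They occurred on either strand within 250 bases before the start in 0.428% of all 27305 RefSeq promoters and in 6 of the 9 chemokine promoters matched. The sixth was that of CXCL10 (log2 fold change -0.36), which did not pass the test. Of 17 promoters matched from the list of Regnase-1 target mRNAs, 6 held the letters. Among these were NFKBIZ (-0.85) and REL (-0.24), which did not pass either. The windows of CXCL1, CXCL2 and CXCL3 resemble one another over most of their length. A match is a description of the letters, not evidence that a factor binds there.

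The list of Regnase-1 target mRNAs, which shares several chemokines with the chemokine list, had 10 of 19 measured members lower and 1 higher, with a median of -0.85. LCN2, the iron-siderophore carrier lipocalin-2, was at 77.7 and 143 TPM in wild type and at 0.89 and 0.66 TPM in the knockout clone (log2 fold change -5.91, SE 0.30, adjusted p = 0.0044). PTGS2, the inducible cyclooxygenase, was at 79.8 and 115 TPM against 9.41 and 9.15 TPM. IER3, an immediate early gene, fell by 1.23. The 1 member that rose was EGLN3, an oxygen-sensing prolyl hydroxylase, at 7.06 and 7.55 TPM against 13.4 and 17.4 TPM. IL6 was at 11.04 and 6.83 TPM in wild type and at 17.5 and 7.73 TPM in the knockout clone, and these groups overlapped. TFRC, the transferrin receptor, and NFKBIZ, an inducible NF-kB cofactor, had log2 fold changes of -0.31 and -0.85 and did not pass. None of the 24 factors of RNA decay measured was called, where 10.8% of all genes were. The most abundant were HNRNPD (log2 fold change -0.21) and KHSRP (-0.07). When only genes with a mean of at least 1 TPM were tested, 2 of these factors were called higher and 2 lower.

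In the list of NF-kB subunits and inhibitors, 3 of 19 were called lower and none higher, where 6.28% of all genes were called lower. BIRC3, an inhibitor of apoptosis that was counted in this list, was at 46.8 and 41.7 TPM against 10.6 and 5.85 TPM. TNIP1 and NFKBIB fell by less, 0.72 and 0.52. TNIP1 and NFKBIB each lost the call in 3 of the 4 fits that left out a library with the spread from both cultures. Of 30 interleukins and their receptors, 3 were called higher and 3 lower, where 4.54% of all genes were called higher and 6.28% lower. The list median of 0.06 was close to the -0.03 of all genes. IL32, a proinflammatory cytokine, was at 41.9 and 27.6 TPM in wild type and at 2.95 and 1.81 TPM in the knockout clone. IL11, a cytokine of the IL-6 family, was at 11.7 and 12.3 TPM against 106 and 59.8 TPM, and the genes of its receptor chain IL11RA and of the related receptor LIFR rose by 1.19 and 1.62. The call of IL11 was lost in 3 of those 4 fits. Without wild-type replicate 2 or knockout replicate 2 the NF-kB list had 1 lower member, and without knockout replicate 2 the interleukin list had 1.

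Of the EGF receptor ligands, AREG and EREG fell. AREG, amphiregulin, was at 119 and 72.3 TPM in wild type and at 7.84 and 8.69 TPM in the knockout clone (log2 fold change -3.34, SE 0.25, adjusted p = 0.0061), and EREG, epiregulin, was at 76.8 and 41.6 TPM against 9.16 and 10.1 TPM. The list of this receptor family, its ligands and the feedback genes of ERK signalling had 7 of 26 members lower and 1 higher. ERBB3, a receptor of the family, fell by 1.93, and ERRFI1, SPRY1, SPRY2 and DUSP6, feedback inhibitors, were also called lower. The ligand genes HBEGF, TGFA and BTC had log2 fold changes of 0.50, -0.54 and -0.29 and did not pass, and neither did the receptor genes EGFR and ERBB2 (EGFR log2 fold change 0.06). The calls of EREG and ERRFI1 were lost in 3 and 4 of the 4 fits that left out a library. The list's 7 lower members became 3 without wild-type replicate 1 and 2 without knockout replicate 2.

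**Figure D2:**
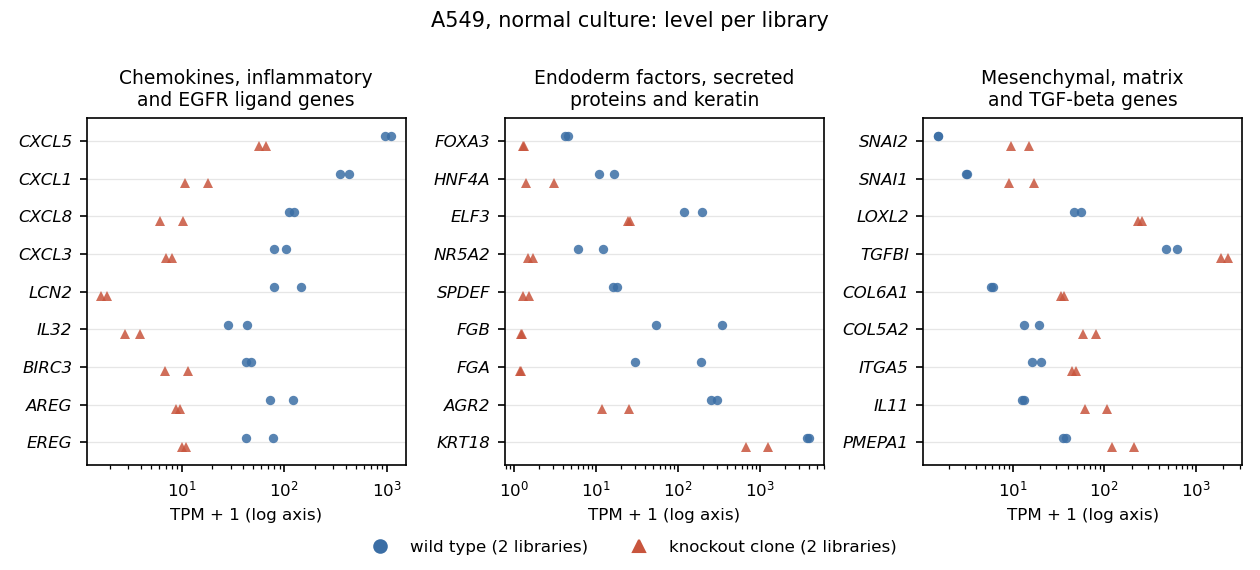
TPM + 1 on a log axis in each library for genes of the chemokine, inflammatory and EGF receptor ligand groups (left), of the endoderm and epithelial groups (middle) and of the mesenchymal, matrix and TGF-beta groups (right). Circles are the 2 wild-type libraries and triangles the 2 libraries of the knockout clone. All genes shown on the left and in the middle are lower, and all on the right higher, in both knockout libraries. All are called genes, and no called gene had overlapping groups.

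Transcription factors of endoderm and lung lineages were lower: 11 of 25 measured fell, none rose, and the median was -0.71. HNF4A, a nuclear receptor of liver, kidney and gut, was at 9.99 and 15.5 TPM in wild type and at 0.39 and 2.05 TPM in the knockout clone (log2 fold change -2.71, SE 0.43, adjusted p = 0.0252). ELF3, an epithelial ETS factor, was at 117 and 193 TPM against 24.6 and 23.8 TPM. Both libraries of the clone were below both wild-type libraries for each, which is shared by all genes called lower. HNF4G, NR5A2, FOXA3, FOXA2 and SOX2 also fell, by between 1.05 (FOXA2) and 2.43 (NR5A2). FOXA1 (log2 fold change -1.11), GATA6 (-0.44) and SOX9 (0.64) did not pass.

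Secreted proteins typical of hepatocytes were lower too, with 11 of 24 measured members of that list and 6 of 17 clotting genes called lower and none higher, at medians of -0.71 and -0.65. The fibrinogen chain genes FGB and FGA were at 53.4 and 339 TPM and at 29.1 and 189 TPM in the wild-type replicates, and at 0.20 and 0.24 TPM and 0.17 and 0.20 TPM in the knockout clone. Wild-type replicate 2 was thus several fold above replicate 1 for both, and the standard errors of their log2 fold changes (-6.80 and -6.00) were 0.83. The third chain gene, FGG, was at 5.27 and 92.0 TPM in wild type and at 0 and 0.13 TPM in the knockout clone. With that spread it missed the threshold (adjusted p = 0.075). SAA1 and SAA2, acute-phase apolipoproteins with similar sequences, were called lower (log2 fold changes -3.03 and -2.65). APOH, apolipoprotein H, was at 17.4 and 17.9 TPM against 0.75 and 1.46 TPM. ALB, albumin, was at or near 0 in all 4 libraries (0.43 TPM at most), and SERPINA1 did not pass.

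Epithelial genes fell in part. Of 12 keratins measured, 6 fell and none rose. KRT18 and KRT8, the keratin pair of simple epithelia, were at 3749 and 3995 TPM and at 3626 and 3569 TPM in wild type, and at 1242 and 666 TPM and 1259 and 765 TPM in the knockout clone (log2 fold changes -2.09 and -1.87, adjusted p = 0.023 and 0.021). Knockout replicate 2 had the lower value of both. KRT19 fell by 2.47 from a low level of 6.11 and 8.33 TPM. Of 26 junction genes, 4 fell and none rose, with a median of -0.57. The tight junction genes CLDN1 and CLDN2 fell (log2 fold changes -2.75 and -1.72). CDH1, E-cadherin, was at 34.7 and 52.1 TPM against 20.6 and 17.7 TPM. Its call was lost in 1 of the 4 fits that left out a library. Without wild-type replicate 2 there were 7 lower junction genes, and without knockout replicate 2 there were 2.

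Goblet cell genes followed: 5 of 17 fell and none rose. AGR2, a protein disulfide isomerase needed for mucin secretion, was at 249 and 295 TPM in wild type and at 10.7 and 24.1 TPM in the knockout clone. SPDEF, the ETS factor of goblet cells, was at 14.9 and 17.3 TPM against 0.29 and 0.51 TPM. The secreted mucin gene MUC5B was at 91.0 and 224 TPM against 8.58 and 17.9 TPM, with wild-type replicate 2 again the higher. MUC1, a membrane mucin, had a log2 fold change of 0.83 and did not pass.

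Mesenchymal genes were higher in the knockout clone: 9 of 22 measured rose and none fell, with a median of 0.73. SNAI2, a repressor of epithelial genes, was at 0.52 and 0.53 TPM in wild type and at 8.54 and 14.1 TPM in the clone (log2 fold change 2.98, SE 0.27, adjusted p = 0.0095). SNAI1 was at 2.12 and 2.18 TPM against 8.0 and 16.1 TPM, and lost the call in 2 of the 4 fits without a library. LOXL2, which crosslinks collagen, was at 54.1 and 45.9 TPM against 260 and 235 TPM. TGFBI, a secreted matrix protein induced by TGF-beta, was at 471 and 622 TPM against 2216 and 1863 TPM. Other members were higher without passing: VIM, vimentin, was at 798 and 634 TPM against 1405 and 1123 TPM (adjusted p = 0.054), and FN1, fibronectin, at 63.7 and 78.5 TPM against 122 and 99.8 TPM (adjusted p = 0.060). CDH2, N-cadherin, had a log2 fold change of 0.34, and ZEB1 of 0.28. Without knockout replicate 2 the list had 5 higher members.

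Of 30 collagen and laminin genes, 11 rose, 1 fell and 18 did not pass, with a median of 0.45. COL5A1 was at 3.14 and 2.45 TPM in wild type and at 48.0 and 43.5 TPM in the knockout clone, and COL6A2 at 2.57 and 2.55 TPM against 29.2 and 26.2 TPM. COL6A1, the partner chain of COL6A2, rose by 2.55, while COL6A3 was under 1 TPM in all 4 libraries. The 1 member that fell was LAMB3, a laminin chain of epithelial basement membranes. Matrix proteases and inhibitors moved both ways, 5 of 26 higher and 5 lower: MMP2 and ADAM19 rose, and MMP7, matrilysin, was at 28.3 and 31.5 TPM against 2.81 and 1.39 TPM. Without wild-type replicate 2, 3 members of the protease list were higher.

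Of 21 integrin genes, 4 rose and none fell, and the median of 0.07 was close to that of all genes. ITGB3 was at 0.67 and 0.62 TPM against 26.6 and 13.3 TPM, and ITGA5, which pairs with beta 1 as a fibronectin receptor, at 19.3 and 15.1 TPM against 48.2 and 43.7 TPM. ITGAV, the alpha chain that pairs with beta 3, was at 52.3 and 38.1 TPM against 121 and 103 TPM. ITGA4 was at 0.45 and 0.24 TPM against 7.43 and 9.07 TPM. ITGA4 and ITGAV lie on chromosome 2 beyond 90 Mb, a stretch described below in which most genes were higher. Without the genes of that stretch the integrin count was 2 higher, the mesenchymal count 7 and the collagen and laminin count 10.

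In the TGF-beta and activin pathway, 8 of 27 members rose and 1 fell. The ligand genes TGFB1 and TGFB2 were at 59.8 and 60.3 TPM and at 24.4 and 29.1 TPM in wild type, and at 121 and 119 TPM and 64.5 and 60.6 TPM in the knockout clone. PMEPA1, a feedback inhibitor induced by the pathway, was at 34.0 and 37.0 TPM against 210 and 120 TPM. LTBP3, which binds latent TGF-beta, rose by 1.47, and the receptor gene TGFBR2 was also called higher. INHBB, an activin subunit, was the 1 member that fell, from 46.3 and 35.2 TPM to 3.39 and 4.05 TPM. The signal transducers SMAD2, SMAD3 and SMAD4 had log2 fold changes of 0.45, 0.11 and 0.18 and did not pass. The list had 5 higher members in each of the 4 fits without a library.

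**Figure D3:**
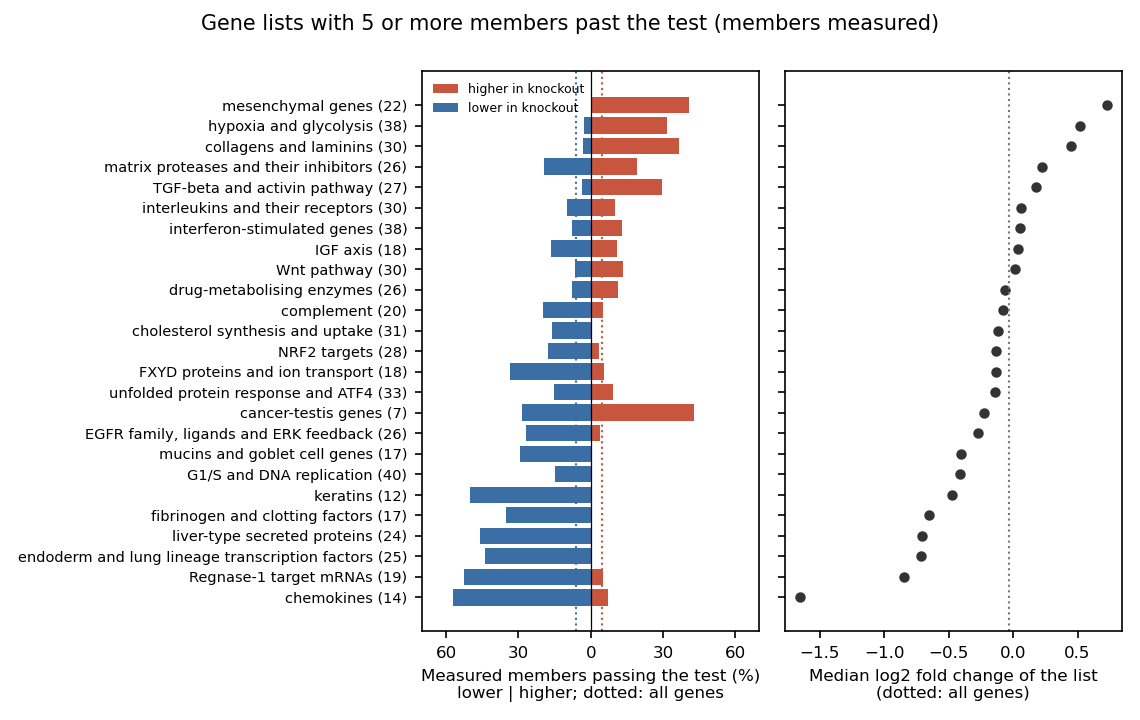
Share of each list's measured members (number in brackets) that passed the test, lower to the left and higher to the right, with the shares over all genes dotted (left panel), and the list's median log2 fold change with that of all genes dotted (right panel). The 25 lists with 5 or more called members are ordered by median, from chemokines at the bottom (-1.65) to mesenchymal genes at the top (0.73).

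Genes of hypoxia and glycolysis were higher in normal culture. Of 38 measured, 12 rose and 1 fell, and 35 had a positive fold change, with a median of 0.52. CA9, a surface carbonic anhydrase (chr9:35673856-35681159, + strand), was at 3.11 and 4.87 TPM in wild type and at 29.6 and 57.5 TPM in the knockout clone (log2 fold change 3.11, SE 0.35, adjusted p = 0.013). NDRG1, a stress-responsive gene, was at 18.6 and 27.5 TPM against 134 and 148 TPM. PFKFB4, which makes an activator of glycolysis, BNIP3L, a mitophagy receptor, and VEGFA, the angiogenic growth factor, rose by 2.05, 1.66 and 1.40. The member that fell was PFKFB3, a relative of PFKFB4, at 211 and 183 TPM against 97.8 and 71.4 TPM. The glycolytic enzyme genes PGK1 and LDHA, at 0.49 and 0.35, did not pass. HIF1A had a log2 fold change of 0.48 and EPAS1 of 0.13. Culture density and oxygen were not analysed here.

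Because CA9 changed in opposite directions in the 2 cultures, the 120 bases before its start (RefSeq, GRCh38.p14, chr9:35673808-35673927, + strand) are shown, with a match on the other strand to ACGTG, the core letters of hypoxia response elements, in capitals.
CA9: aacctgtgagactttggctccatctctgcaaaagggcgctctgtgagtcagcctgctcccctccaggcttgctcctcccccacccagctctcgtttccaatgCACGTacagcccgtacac
These short letters occurred within 250 bases before the start in 18.7% of all promoters and in 17 of 34 promoters of the hypoxia and glycolysis list. A factor's binding was not analysed here.

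Few genes of replication and cell division had a positive fold change, and most did not pass the test. Of 40 genes of G1/S and DNA replication, 6 fell and none rose, 5 had a positive fold change, and the median was -0.41. CCND1, cyclin D1, was at 181 and 157 TPM in wild type and at 65.3 and 48.0 TPM in the knockout clone (log2 fold change -1.57, SE 0.17, adjusted p = 0.013). CDC25A, CDC6 and MCM10 fell by 1.06, 0.78 and 0.74, and all of these calls but that of CCND1 were lost in at least 3 of the 4 fits without a library. Of 39 genes of G2/M and mitosis, 3 fell (ECT2, CDK1 and MAD2L1) and none rose, with a median of -0.19. In this list 4 members had a positive fold change, where 8386 of all 18227 genes had one. The share of the G2/M list called lower was thus near the 6.28% of all genes, and these calls were lost in 2, 4 and 4 of the 4 fits. Without a library the G1/S list had 1 or 2 lower members and the G2/M list 0 or 1. When only genes with a mean of at least 1 TPM were tested, the G1/S list had 16 lower members and the G2/M list 6.

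Metabolic and redox genes changed less uniformly. Of 28 NRF2 targets, 5 fell and 1 rose. Besides GPX2, the aldo-keto reductase genes AKR1B10, AKR1C2 and AKR1C3 fell by 1.90, 1.36 and 1.12, while NQO1, a standard target, had a log2 fold change of -0.18 and did not pass. The AKR1C genes are close copies, and counting may have divided reads between them. Of 31 genes of cholesterol synthesis and uptake, 5 fell and none rose. HMGCS1, an early enzyme of the pathway, was at 78.9 and 77.9 TPM against 26.1 and 31.2 TPM but lost its call in every fit without a library, each of which left 2 lower members in the list. Of 30 Wnt pathway genes, 4 rose and 2 fell, where 4.54% of all genes were called higher and 6.28% lower. The share of the Wnt list called lower was thus near that of all genes. RNF43, a ligase that removes Wnt receptors, was at 11.5 and 11.8 TPM against 0.28 and 0.77 TPM. The secreted inhibitor DKK1 was at 495 and 623 TPM against 197 and 131 TPM, its call being lost in 2 of those 4 fits. The Wnt list had 1 higher and 4 lower members without knockout replicate 1, 2 and 1 without knockout replicate 2, and 1 lower member without wild-type replicate 2.

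A run of neighbouring genes was higher on chromosome 2. Fold changes were summarised in bins of 10 Mb for genes with a mean of at least 5 TPM, after the chromosome medians had been seen. Beyond 90 Mb, which takes in the long arm, the median log2 fold change was 0.36 over 393 genes, and 85.2% of them were above 0. On chromosome 2 up to 90 Mb the median was -0.08 over 288 genes, and over the rest of the genome it was -0.10 over 9718 genes. All 15 bins beyond 90 Mb had medians between 0.07 and 0.51, the 9 before it lay between -0.26 and 0.06, and the 226 on other chromosomes lay between -0.52 and 0.29. The median beyond 90 Mb was between 0.31 and 0.41 in each of the 4 pairings of a knockout with a wild-type library. Of the 709 genes tested there, 106 (14.95%) were called higher and 23 (3.24%) lower, against 4.14% and 6.47% of the 16807 genes on other chromosomes. The same stretch was also higher in the stem-cell-enriched libraries of the same clone (median 0.51 against 0.07 over the rest), and it was not higher in the H2023 clone (-0.28 against 0.04). In the H2023 clone, chromosome 2 up to 90 Mb had a median of -0.18. On the other chromosomes 6 bins had medians between 0.20 and 0.29, on chromosomes 9, 15, 19, 22 and X. The lowest bin, chromosome 18 from 70 Mb, had a median of -0.52 over 15 genes (-0.22 in stem-cell-enriched culture) and includes LINC02582. Genes called higher beyond 90 Mb of chromosome 2 include UGT1A7, ACKR3, ITGA4, COL5A2, ITGAV, IRS1 and BMPR2, with log2 fold changes of 4.13, 3.90, 2.78, 2.09, 1.31, 1.13 and 0.96. CCL20, INHBB and TM4SF20 lie there too and fell by 2.52, 3.14 and 3.43. The part that the position plays in the change of any one gene was not tested.

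**Figure D4:**
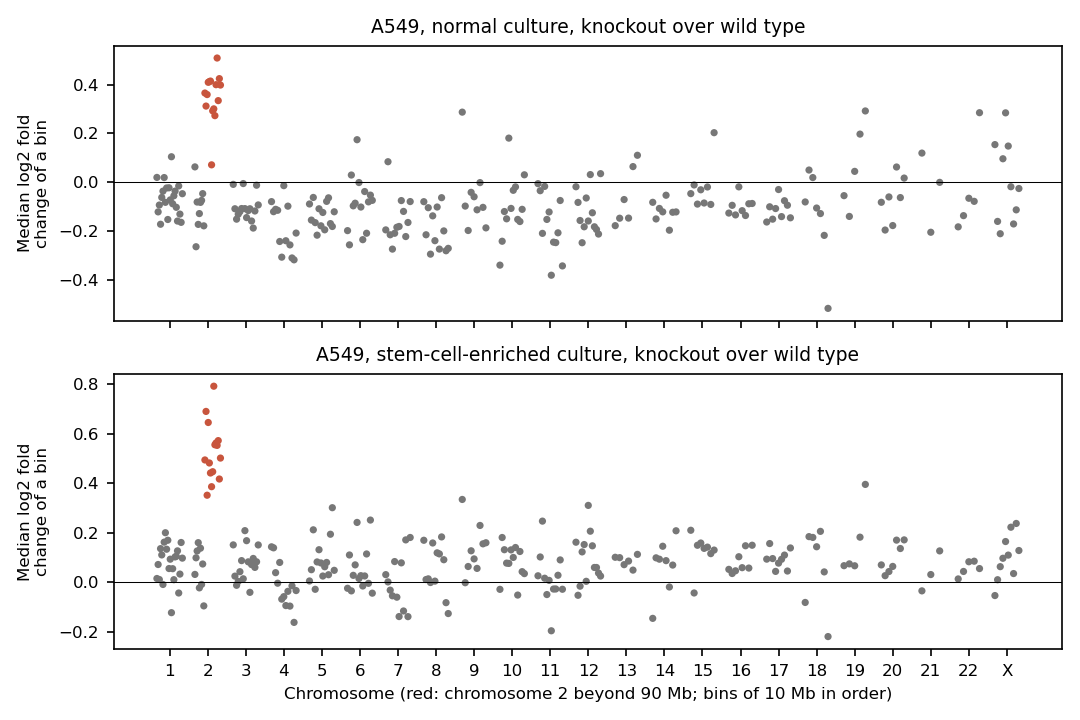
Median log2 fold change (knockout over wild type, A549) of genes with a mean of at least 5 TPM in each 10 Mb bin holding at least 15 such genes, by chromosome, in normal culture (top) and in stem-cell-enriched culture (bottom). Points of a chromosome are in order along it, and bins of chromosome 2 beyond 90 Mb are red: they lie between 0.07 and 0.51 in the top panel and between 0.35 and 0.79 in the bottom panel.

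Whether the knockout effect depended on the culture was tested as the difference of the fold changes, normal minus stem-cell-enriched, over the 8 A549 libraries. Culture type and days in culture change together. Of all genes, 6.65% differed (1212 genes). Without normal-culture wild-type replicate 1 or 2 there were 170 or 731, without normal-culture knockout replicate 1 or 2 there were 208 or 137, without stem-cell-enriched wild-type replicate 1 there were 476, and without stem-cell-enriched knockout replicate 1 or 2 there were 531 or 266. The hypoxia and glycolysis list held 14 genes with a higher and 1 with a lower fold change in normal culture. CA9 was the widest: in stem-cell-enriched culture it was at 82.8 and 77.0 TPM in wild type and at 3.49 and 1.03 TPM in the knockout clone, a fall of 4.74, so the difference was 7.85 (SE 0.58, adjusted p = 0.0028). NDRG1 likewise was at 79.5 and 178 TPM against 14.6 and 13.3 TPM there, and MIR210HG, the host transcript of miR-210, at 14.5 and 27.3 TPM against 5.72 and 4.83 TPM, after 2.24 and 5.55 TPM against 20.2 and 39.9 TPM in normal culture. The wild-type levels of CA9 were higher in the stem-cell-enriched than in the normal libraries, in tables that the authors made separately for each culture.

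Interferon-stimulated genes did not move as a group in normal culture, with 5 of 38 higher and 3 lower and a median of 0.05. The antiviral gene OAS1 was at 61.3 and 73.1 TPM against 22.0 and 11.9 TPM, and the transcription factor gene STAT2 rose by 1.11 (call lost in 2 of the 4 fits without a library). In those fits the list had 0 or 1 higher members and 1 lower. In stem-cell-enriched culture the median of the same list was -2.31, and 18 of the 38 had a difference between cultures that passed the test, all with the higher fold change in normal culture. ISG15, a ubiquitin-like modifier, was at 5.94 and 6.09 TPM against 14.6 and 8.12 TPM in normal culture and at 843 and 261 TPM against 47.0 and 14.6 TPM in stem-cell-enriched culture. IFI6, a mitochondrial antiapoptotic protein gene, was at 12.1 and 6.38 TPM against 18.5 and 12.05 TPM in normal culture, overlapping groups, and at 2126 and 792 TPM against 127 and 36.2 TPM in stem-cell-enriched culture. Genes of G1/S and DNA replication differed in the other direction, with 18 of 40 having the lower fold change in normal culture (medians -0.41 and 0.67). KRT8 and KRT18, which fell in normal culture, had log2 fold changes of 0.05 and 0.05 in stem-cell-enriched culture. CXCL1 fell by 4.79 in normal culture and had a log2 fold change of -1.15 in the other, a difference of -3.64 (SE 0.66, adjusted p = 0.0245).

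**Figure D5:**
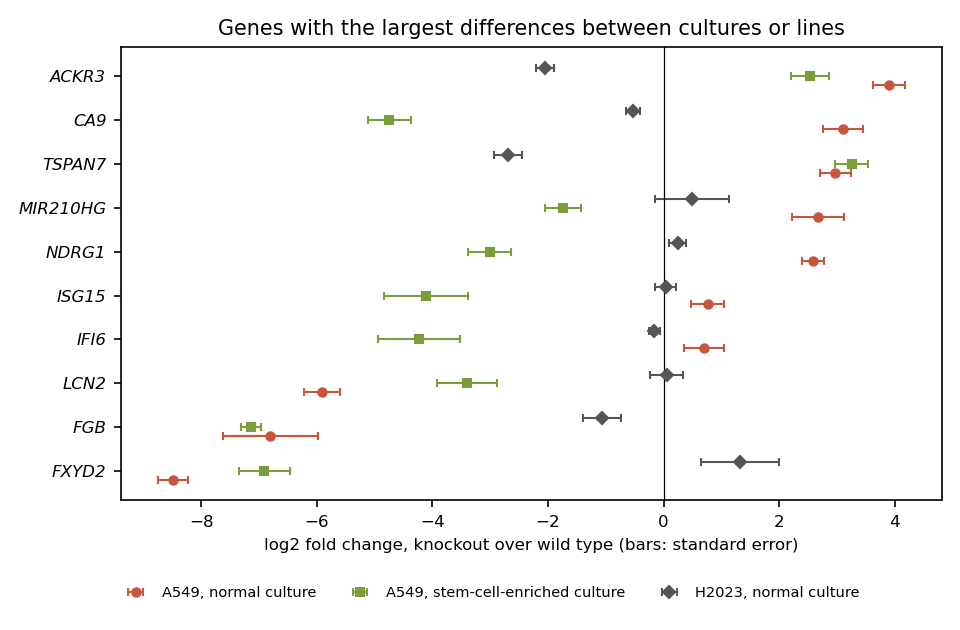
Log2 fold change (knockout over wild type, bars show the standard error from limma) in A549 normal culture (circles), A549 stem-cell-enriched culture (squares) and H2023 normal culture (diamonds) for 10 genes with large differences between cultures or lines. They had the 5 largest of each kind among genes with a mean of at least 10 TPM in the higher A549 normal-culture group. CA9, MIR210HG, NDRG1, ISG15 and IFI6 lie on opposite sides of 0 in the 2 A549 cultures, though ISG15 and IFI6 did not pass the test in normal culture.

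The lines were compared in the same way in normal culture, A549 minus H2023, and 12.3% of all genes differed (2241 genes). This count was 966 without A549 wild-type replicate 1, 1197 or 912 without A549 knockout replicate 1 or 2, 1206 without H2023 wild-type replicate 2, and 844 or 683 without H2023 knockout replicate 1 or 2. FXYD2 was at 0.52 and 4.5 TPM in wild-type H2023 and at 6.45 and 6.03 TPM in the H2023 clone, and the difference was -9.80 (SE 0.74, adjusted p = 8.8e-04). In wild-type cells this gene was thus low in H2023 and abundant in A549. LCN2 was at 13.4 and 14.4 TPM against 19.2 and 10.9 TPM in H2023, overlapping groups, and differed by -5.96. FGB was at 150 and 281 TPM in wild-type H2023 and at 97.9 and 97.3 TPM in the clone, and differed by -5.74. ACKR3 was at 15.6 and 16.8 TPM in wild-type H2023 and at 2.90 and 3.43 TPM in its clone, and TSPAN7, a tetraspanin, at 21.2 and 25.4 TPM against 2.16 and 3.48 TPM, where A549 had 1.36 and 0.54 TPM against 13.7 and 14.3 TPM. The medians of the chemokine, mesenchymal and endoderm factor lists in H2023 were -0.07, 0.03 and -0.25, against -1.65, 0.73 and -0.71 in A549.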

How the data were processed

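Libraries were stranded TruSeq mRNA preparations of ReliaPrep-purified RNA, per the labels' protocols. HISAT2, StringTie and GRCh38 are named in the submitters' processing notes. Versions, annotation and strand setting are not given in the sources used here. The authors deposited TPM per library and, as a signal averaged over the 4 libraries, a mean normalized count per gene, which summed to 20540195 over genes. The depth of single libraries is unknown. The first row of each of 119 identifiers in several identical rows was kept, leaving 18227 genes. Symbols came from a list of Ensembl names (18145 genes) or the table (20), and positions from GENCODE 29.

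Libraries were grouped by their labels. Tests were two-sided limma-trend (limma 3.58.1, R 4.3.3) on log2(TPM + 1), without filter, adjusted by Benjamini-Hochberg, threshold 0.05. The fitting code was run on simulated libraries with independent values, which does not test whether the calls hold in these data. The 48 gene lists and the rule for named genes (the targeted gene, the 12 largest rises and falls of at least 10 TPM in the higher group, up to 4 per list, 5 per difference) were chosen with earlier results of these data known. The largest rises and falls were taken among called genes whose groups did not overlap. The differences, too, needed a mean of at least 10 TPM in the higher A549 normal-culture group. Some genes outside the rule, and the promoters, were chosen after their values were seen. Alternatives were another pseudocount, a filter, centring, rescaling, another spread, a replicate block and left-out libraries. Some items are not reported here.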

Additional observations from a re-analysis of the deposited data

Results flagged for a closer look

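The fold changes of 10 genes are listed here because they differed between 2 cultures or 2 lines. Each difference was tested itself with limma over 8 libraries and passed the threshold. It was among the 5 largest of its kind for genes with a mean of at least 10 TPM in the higher A549 normal-culture group. CD74, under that level, had a culture difference of -4.68 (SE 0.40, adjusted p = 0.0029). Between A549 cultures (normal minus stem-cell-enriched), the log2 fold changes differed by 7.85 for CA9, 5.59 for NDRG1, 4.93 for IFI6, 4.87 for ISG15 and 4.42 for MIR210HG. In stem-cell-enriched culture the 2 wild-type libraries themselves were apart for IFI6 (2126 and 792 TPM) and ISG15 (843 and 261 TPM). Between lines in normal culture (A549 minus H2023), the differences were -9.80 for FXYD2, -5.96 for LCN2, 5.95 for ACKR3, -5.74 for FGB and 5.66 for TSPAN7. Of the 173 genes that the rule names, 45 passed the test of the culture difference and 110 that of the line difference, against 6.65% and 12.3% of all genes. The named genes were chosen for large changes in A549 normal culture or for these differences, so nothing is read from the higher shares. Each line is represented by 1 knockout clone, so line and clone cannot be told apart.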

How the results depend on the processing

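With 1 of the 4 libraries left out, the counts of genes called, higher and lower were all 0 (lowest and highest), and ZC3H12A ranged from -0.91 to -0.69 without passing. Such a fit has 1 library in a group. With the spread taken from the A549 libraries of both cultures, an alternative chosen after seeing the data, the counts without wild-type replicate 1 were 1155 called, 513 higher and 642 lower. Without knockout replicate 1 they were 1217, 541 and 676, and without knockout replicate 2 they were 948, 451 and 497. Of the 155 named genes past the threshold, 101 passed in all 4 of these fits. Leave-one-out counts ranged from 137 to 971 for the culture difference and from 683 to 1961 for the line difference. The cause was not tested beyond the smaller number of libraries. A pseudocount of 0.1, a minimum mean of 1 TPM, centring, rescaling without mitochondrially encoded genes and no trend kept each of these counts within 1.5 times, and so did the spread of 8 A549 libraries, run for the comparison in normal culture only. The counts of list members were less stable. Of 96 (higher and lower in 48 lists, many of them small), 27 moved by more than 1.5 times with the minimum mean, 26 with the replicate block, 25 with the spread of 8 libraries, 12 without a trend, 6 after rescaling and 2 with the other pseudocount. In the 4 fits without a library and with the spread from both cultures, between 27 and 34 moved. Lower members in G1/S and DNA replication numbered 10 with the block or after rescaling, against 6, and lower keratins numbered 3 without a trend, against 6. Lower junction genes numbered 8 with the minimum mean or the spread of 8 libraries and 2 without a trend, against 4. Lower NF-kB genes numbered 6 with the minimum mean and 1 without a trend, against 3. Replicate numbers were not shown to pair the libraries (r = 0.077 between the replicate differences of the groups), and with the replicate block 2109 genes were called, with 1264 and 1982 for the culture and line differences. TPM does not show the depth behind a low value.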

Other observations

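Cancer-testis genes moved both ways in normal culture, with 3 of 7 measured higher and 2 lower. XAGE1A and XAGE1B, near-identical copies, rose by 2.22 and 2.23, with XAGE1A at 33.1 and 29.8 TPM in wild type and at 153 and 147 TPM in the knockout clone. MAGEA12 was at 2.26 and 5.10 TPM in wild type and listed at 0 in both knockout libraries, and CSAG1 fell by 2.62. In H2023 neither CSAG1 nor MAGEA12 passed (adjusted p = 0.29 and 0.26). Not passing says little in that H2023 test. Even TM4SF20, with a log2 fold change of -4.02 (SE 0.17), had an adjusted p of 0.10 in it. The wild-type libraries there were far apart, at 1.29 and 14.1 TPM for CSAG1 and at 1.71 and 16.2 TPM for MAGEA12, and both clone libraries were at 0.06 TPM or less.

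Single members of further lists are given here. S100P, a calcium-binding protein, was at 124 and 127 TPM against 16.8 and 9.59 TPM, and it was 1 of 2 S100 genes that fell, out of 13 measured. HOXA5 was the 1 of 29 HOX genes that passed, a share no higher than the 4.54% of all genes called higher. It was at 3.8 and 3.89 TPM against 15.4 and 11.7 TPM, and it lost the call in 2 of the 4 fits that left out a library. AQP3, a water and glycerol channel, was at 57.7 and 37.8 TPM against 2.31 and 2.91 TPM. GDF15, a stress cytokine and p53 target, was at 97.3 and 115 TPM against 37.4 and 30.9 TPM. The normal-culture calls of GDF15, C3 and CD74 were lost in 1, 2 and 4 of those 4 fits. Complement C3 fell by 1.27 in normal culture and had a log2 fold change of 1.06 in stem-cell-enriched culture. CD74, the invariant chain of MHC class II, was at 1.27 and 1.85 TPM against 0.16 and 0.18 TPM in normal culture, and had a log2 fold change of 3.56 in the other.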
